A study of Rattus norvegicus with 16 samples.

Results

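The data concern 5 genes that are widely used as markers of astrocytes: Gfap, S100b, Aqp4, Slc1a2 and Slc1a3. They were chosen by name, each with its Ensembl identifier and chromosome, and not by a threshold on a measured value. All 5 were found among the 32883 gene rows of the count files on the chromosome given for them, so none was dropped. All 5 also passed the filter on low counts that left 14241 genes in the tests, with raw counts per library between 1441 (Gfap, female control 7) and 70683 (Aqp4, female control 10).

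Astrocytes are the glial cells that tile the grey matter, wrap synapses and cover blood vessels with their endfeet. They take up glutamate released by neurons through the transporters encoded by Slc1a2 (GLT-1) and Slc1a3 (GLAST), and they move water and support potassium clearance at the endfeet, where the water channel encoded by Aqp4 is concentrated. Gfap encodes the intermediate filament of the astrocyte cytoskeleton and is the classical marker of reactive astrocytes, whereas S100b encodes a calcium-binding protein that astrocytes also secrete. Slc1a3 is also transcribed in radial glia, and S100b in some oligodendrocyte lineage cells and neurons, so these transcripts are enriched in astrocytes without being exclusive to them.

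Bulk transcripts were counted in tissue from the nucleus basalis of Meynert, a source of cortical acetylcholine in the basal forebrain, of Long Evans rats labelled ChAT::Cre and aged 70+ days. Every animal group carried this genotype, in which Cre recombinase is placed under control of the choline acetyltransferase gene, and no group without it was compared. The 4 groups were stressed females, control females, stressed males and control males, with 4 libraries each, and the labels do not describe the stress procedure. Nothing in the labels states that the libraries came from separate animals, so p-values measure the spread between libraries, which may be technical. Libraries are called here by the number in their title. For the 4 stressed females that number differs from the one attached to the counts, which leaves every group as it is.

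The libraries held 22.7 to 38.2 M (mega) gene counts where HTSeq had counted them (13 libraries) and 63.1 to 73.8 M where featureCounts had (female control 10, male stress 11 and male control 20). Counts of mitochondrial genes made up 64.2% to 82.5% of a library, and the nuclear counts numbered 5.86 to 22.6 M. Some libraries stood apart. Female control 10 had the lowest mitochondrial share (64.2%) and male stress 11 the highest (82.5%). In female stress 1, reads outside annotated genes made up 45.0% of the reads that were inside or outside a gene, against 21.4% to 24.7% in the other stressed females. The share of entries not aligned was 40.8% in female control 7 and 38.8% in male stress 14, against 13.2% to 15.4% in the other 11 HTSeq libraries. Male stress 14 was the lowest of the 4 stressed males for each of the 5 genes.

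On Rnor_6.0, Gfap (ENSRNOG00000002919) lies on the minus strand of chromosome 10 from 90990762 to 90999506, with 10 exon blocks of 3661 bases in all. Aqp4 (ENSRNOG00000016043) lies on the minus strand of chromosome 18 from 6765945 to 6782996, with 6 exon blocks of 5419 bases. S100b (ENSRNOG00000001295) lies on the minus strand of chromosome 20 from 13130636 to 13142856, with 3 exon blocks of 1484 bases. These models are those of Ensembl release 92, per the headers of the 3 featureCounts files, and no other gene in them overlapped any of the 5. The release behind the 13 HTSeq files is not given in the sources used here. Slc1a2 (ENSRNOG00000005479) lies on the plus strand of chromosome 3 from 92640752 to 92665644, with 5 exon blocks of 882 bases. Slc1a3 (ENSRNOG00000016163) lies on the minus strand of chromosome 2 from 57860834 to 57935363, with 10 exon blocks of 3982 bases. The Slc1a2 model was a partial one: its span of 24893 bases was 19.1% of the 130337 bases that RefSeq gives the gene on the later build GRCr8, so reads from the rest of the transcript did not enter counts made with this model. The spans of Gfap, Aqp4 and Slc1a3 were 101%, 102% and 99.2% of the RefSeq spans, and that of S100b was 139%.

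S100b, Slc1a2 and Slc1a3 varied together from library to library (r of 0.72 to 0.79 between them), whereas Gfap did not, and the 250 bases upstream of their start sites are printed to compare these 4 promoters. They come from RefSeq on GRCr8, 5′ to 3′ on the strand of the gene, from the first start site listed for each. There were 2 start sites listed for Slc1a2, 3 for Slc1a3 and 1 each for S100b and Gfap, and the later ones were not compared. The windows are chr20:12381082-12381331 (minus strand) for S100b, chr3:109459859-109460108 (plus strand) for Slc1a2, chr2:59557809-59558058 (minus strand) for Slc1a3 and chr10:88361662-88361911 (minus strand) for Gfap. Capitals mark matches to the NFI motif TTGGC on either strand.
S100b: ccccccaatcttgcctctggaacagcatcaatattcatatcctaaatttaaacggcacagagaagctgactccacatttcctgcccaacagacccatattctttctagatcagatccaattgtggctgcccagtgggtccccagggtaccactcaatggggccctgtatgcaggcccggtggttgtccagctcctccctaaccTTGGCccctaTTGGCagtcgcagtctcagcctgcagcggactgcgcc
Slc1a2: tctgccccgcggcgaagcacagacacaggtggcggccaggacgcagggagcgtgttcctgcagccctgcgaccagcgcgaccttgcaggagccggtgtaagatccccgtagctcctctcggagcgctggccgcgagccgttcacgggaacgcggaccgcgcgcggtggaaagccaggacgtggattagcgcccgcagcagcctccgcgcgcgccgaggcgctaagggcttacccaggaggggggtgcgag
Slc1a3: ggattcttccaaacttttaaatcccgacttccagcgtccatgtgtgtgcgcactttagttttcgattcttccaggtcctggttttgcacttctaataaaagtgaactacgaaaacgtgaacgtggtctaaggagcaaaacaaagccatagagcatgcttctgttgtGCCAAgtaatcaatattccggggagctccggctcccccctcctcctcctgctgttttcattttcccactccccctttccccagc
Gfap: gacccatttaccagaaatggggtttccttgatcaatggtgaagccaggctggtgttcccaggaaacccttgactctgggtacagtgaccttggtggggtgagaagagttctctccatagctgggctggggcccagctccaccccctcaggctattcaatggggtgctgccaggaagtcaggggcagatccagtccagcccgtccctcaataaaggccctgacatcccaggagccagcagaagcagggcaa

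The 3 promoters whose genes varied together had little in common by these measures. The grouping itself changed when the mitochondrial share of a library was removed, as given below. The S100b window held 2 matches to TTGGC, beginning 47 and 37 bases before the start site, the Slc1a3 window held 1 on the opposite strand, beginning 84 bases before it, and the Slc1a2 and Gfap windows held none. Such a match occurred in 40.3% of 27457 rat promoters of the same length. GC content was 71.2% for Slc1a2, 57.6% for Gfap, 54.8% for S100b and 48% for Slc1a3, against a median of 52% over all promoters. A further 4 motifs were searched on both strands: STAT (TTCNNNGAA, in 7.52% of all promoters), the core of a glucocorticoid receptor site (AGAACA, 17.1%), AP-1 (TGANTCA, 6.36%) and the TATA box (TATAAA, 13.1%). None of these letters occurred in the windows of the 4 genes or of Aqp4.

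Levels between genes were compared as counts per M counts (CPM, normalised by TMM with mitochondrial counts in the library size) per kilobase of annotated exon. S100b had the highest level, with 241 to 500.5 CPM per kb over the 16 libraries (median 342), and ranked 24 among the 14241 genes by its mean. Slc1a2 ran from 69.7 to 166 CPM per kb (median 119.9) and Aqp4 from 93.5 to 149 (median 116). Slc1a3 ran from 48.9 to 84.6 CPM per kb (median 67.1). Gfap had the lowest level, 14.6 to 29.3 CPM per kb (median 20.4), and ranked 797.

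The order was the same in all 16 libraries at its top and bottom: S100b was above every other member, Slc1a3 below Aqp4, and Gfap below Slc1a3. The median ratio between neighbours was 3.04 for S100b over Slc1a2, 1.66 for Aqp4 over Slc1a3 and 3.02 for Slc1a3 over Gfap. Slc1a2 and Aqp4 could not be ordered, because Slc1a2 was the higher of the pair in 8 libraries and the lower in 8, with ratios from 0.472 to 1.41. The level of Slc1a2 rests on 882 exon bases of a partial model, so its place in this order depends on that model.

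**Figure D1:**
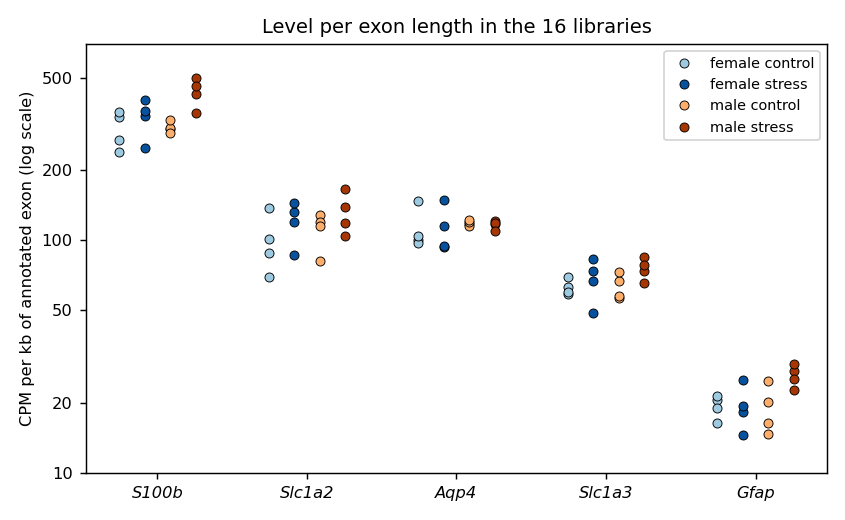
Level of each astrocyte gene per kilobase of exon (CPM per kb, log axis) in the 16 libraries, coloured by group. S100b lies at 241 to 500.5 and Gfap at 14.6 to 29.3, while the points of Slc1a2 and Aqp4 overlap.

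The question the groups address is whether stress alters the level of these transcripts in either sex. No member passed the threshold (Benjamini-Hochberg adjusted p under 0.05 in edgeR's quasi-likelihood test over all 14241 genes) in any of the 6 comparisons, and DESeq2 called none either. The sets of genes called in all were small: 0.0632% of the genes tested for stress in females, 0.119% for stress in males and 0.337% for stress averaged over the sexes. At an unadjusted p under 0.05, 0 of 5 members passed in females, 2 of 5 in males and 2 of 5 for the average, against 6.48%, 7.70% and 10.2% of all genes; DESeq2 gave 0, 2 and 3. In bulk RNA, fewer astrocytes and less RNA per astrocyte cannot be told apart, so each value below is a level in the tissue.

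**Figure D2:**
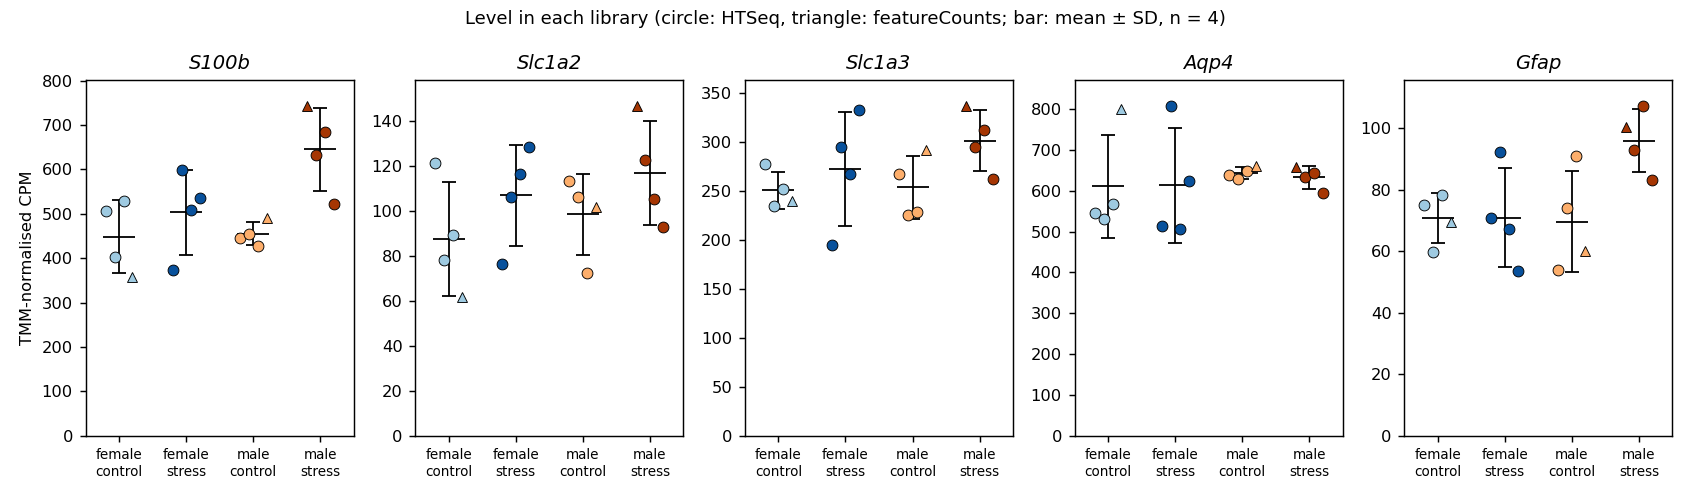
Level of each gene (CPM, linear axes from 0) in each library by group, with group means and SD (n = 4 libraries) and triangles for the 3 libraries counted with featureCounts. S100b is the gene whose stressed males (523 to 743) all lie above the control males (429 to 490.5).

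S100b, the calcium-binding protein, had the lowest p of the members in males. It was at 743, 633, 684 and 523 CPM in stressed males 11, 12, 13 and 14, and at 447, 454, 429 and 490.5 CPM in control males 16, 17, 18 and 20. All 4 stressed males were above all 4 control males, and it was the only member whose groups did not overlap in a sex. Across all genes tested, 2.96% had every stressed male above every control male. The means were 646 ± 93.3 and 455 ± 26.0 CPM (SD, n = 4 each), a 1.42-fold difference (log2 difference 0.51, 95% interval 0.22 to 0.80). By its p in edgeR the gene ranked 66 of 14241 and did not pass (adjusted p = 0.306).

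In females, S100b overlapped between the groups. Stressed females 2, 3, 4 and 1 had 598, 508, 536 and 372 CPM, and control females 6, 7, 8 and 10 had 506, 402, 530.0 and 357 CPM. The lowest value of each group came from a library named above as standing apart, female stress 1 and female control 10. The group means were 504 ± 95.3 and 449 ± 82.4 CPM (SD, n = 4 each), with a log2 difference of 0.17 (95% interval -0.12 to 0.46, adjusted p = 0.879, edgeR). It was 0.07 without female stress 2, without female control 10 or in the HTSeq libraries, and 0.29 without female stress 1 (0.26 without female control 8).

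Averaged over the sexes, the stress difference in S100b was 0.34 on the log2 scale (SE 0.10, rank 170 by p, adjusted p = 0.202, edgeR). The call turned on 1 library and on the filter. Without female stress 1 the average was 0.39 with an adjusted p of 0.0478, and with no filter on low counts the differences in males and on average were 0.50 and 0.33 with adjusted p of 0.0426 and 0.0457. In the 13 HTSeq libraries alone the male difference was 0.47 with an adjusted p of 0.598.

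Gfap, the filament gene, was at 100.4, 93.0, 107 and 83.2 CPM in stressed males 11, 12, 13 and 14. In control males 16, 17, 18 and 20 it was at 53.8, 73.9, 90.9 and 60.0 CPM. Of the 4 stressed males 3 were above every control, and male stress 14 was below control 18. The means were 96.0 ± 10.3 and 69.7 ± 16.5 CPM (SD, n = 4 each), a 1.38-fold difference (log2 difference 0.46, 95% interval 0.14 to 0.78, rank 208 by p, adjusted p = 0.418, edgeR). Without male stress 14, the library with 38.8% of its entries not aligned, the log2 difference was 0.52 for Gfap and 0.59 for S100b, and neither passed (adjusted p = 0.379 and 0.204, edgeR). Leaving out male stress 11, male stress 13 or male control 16 instead lowered both differences, and leaving out male stress 12 raised both slightly. With single libraries left out, Gfap ran from 0.36 (without male control 16) to 0.61 (without male control 18). S100b ran from 0.43 (without male stress 11) to 0.59. In the HTSeq libraries alone the male difference in Gfap was 0.37 (adjusted p = 0.819, edgeR).

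In females the Gfap means were nearly equal. The stressed females 2, 3, 4 and 1 had 92.2, 67.2, 53.5 and 70.8 CPM, and the control females 6, 7, 8 and 10 had 75.2, 59.9, 78.3 and 69.5 CPM. The stressed libraries held both the highest and the lowest value of the sex. The log2 difference was 0.00 (95% interval -0.31 to 0.32, adjusted p = 0.998, edgeR). As a fold, that interval runs from 0.804 to 1.25. On average over the sexes the log2 difference in Gfap was 0.23 (SE 0.11, adjusted p = 0.477, edgeR), and 0.15 without female stress 2.

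The glutamate transporters were the next pair. Slc1a3 was at 337, 295, 312 and 262 CPM in stressed males 11 to 14, and at 268, 226, 229 and 292 CPM in control males 16, 17, 18 and 20. Stressed males 11, 12 and 13 were above every control male and male stress 14 was not. The log2 difference was 0.25 (95% interval -0.02 to 0.52, adjusted p = 0.671, edgeR), and 0.31 without male stress 14. With single libraries left out it ran from 0.19 (without male stress 11) to 0.32 (without male control 20). In females it was at 295.5, 267, 333 and 195 CPM under stress and at 277, 234, 252 and 239.9 CPM in controls, in the library order used above. The stressed females thus lay both above and below the controls, with female stress 1 the lowest of the sex (log2 difference 0.12, 95% interval -0.15 to 0.39, adjusted p = 0.919, edgeR). That difference moved with single libraries, from 0.01 without female stress 4 and 0.07 without female stress 2 to 0.25 without female stress 1.

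Slc1a2, the main transporter of forebrain astrocytes, was the most variable member, with a biological coefficient of variation of 0.197 against a median of 0.186 for all genes and 0.137 to 0.157 for the other 4. It was at 146, 122, 105 and 92.6 CPM in stressed males and at 113, 106, 72.3 and 102 CPM in control males, so that 2 of 4 stressed libraries were above every control. In females it was at 106, 116, 128 and 76.2 CPM under stress and at 121, 78.0, 89.1 and 61.4 CPM in controls, with 1 of 4 above every control. The groups overlapped in both sexes. The log2 differences were 0.25 in males (95% interval -0.17 to 0.66, adjusted p = 0.823, edgeR) and 0.29 in females (95% interval -0.13 to 0.70, adjusted p = 0.859, edgeR). In males it was 0.12 without male control 18 or without male stress 11. In females it was 0.15 without female control 10, 0.19 without female stress 4 and 0.49 without female control 6. The 13 HTSeq libraries gave 0.14 in males and 0.15 in females.

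Aqp4, the water channel, gave the smallest stress difference on average, -0.01 on the log2 scale (95% interval -0.21 to 0.19, adjusted p = 0.986, edgeR). In males it was at 658, 635, 644 and 594 CPM under stress and at 638, 628, 649 and 661.5 CPM in controls, with no stressed library above every control. Its spread in males was narrow, with an SD of 27.6 CPM around 633 under stress and of 14.6 CPM around 644 in controls. In females it was at 807, 507, 623 and 515 CPM under stress and at 545, 530.3, 567 and 799.6 CPM in controls. Female stress 2 and female control 10 were the highest of their groups, and the SD was 139.9 and 127 CPM. The log2 difference was 0.01 in females (95% interval -0.28 to 0.29, adjusted p = 0.996, edgeR) and -0.03 in males (95% interval -0.31 to 0.26, adjusted p = 0.983, edgeR).

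Read as a list, 5 of 5 members had a stress difference above 0 in females and 4 of 5 in males, with a median log2 difference of 0.12 and 0.25. In females Gfap and Aqp4 were within 0.01 of 0. The female count was 4 of 5 by DESeq2, RLE factors, HTSeq libraries or nuclear counts, and 3 with no filter on low counts. It was also 3 without female stress 2 or without female control 7, and 4 or 5 with any other library left out. With the mitochondrial covariate or without male stress 14, the count in males was 5 of 5. Over all genes tested 51.0% and 50.5% were above 0, with medians of 0.01 and 0.00. The members together took 0.736% ± 0.0688 of the nuclear counts in stressed males and 0.622% ± 0.0117 in control males (SD, n = 4 each). The same share was 0.644% ± 0.104 in stressed and 0.598% ± 0.0506 in control females. The members share libraries and are not independent of each other, so these counts and shares carry no test.

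**Figure D3:**
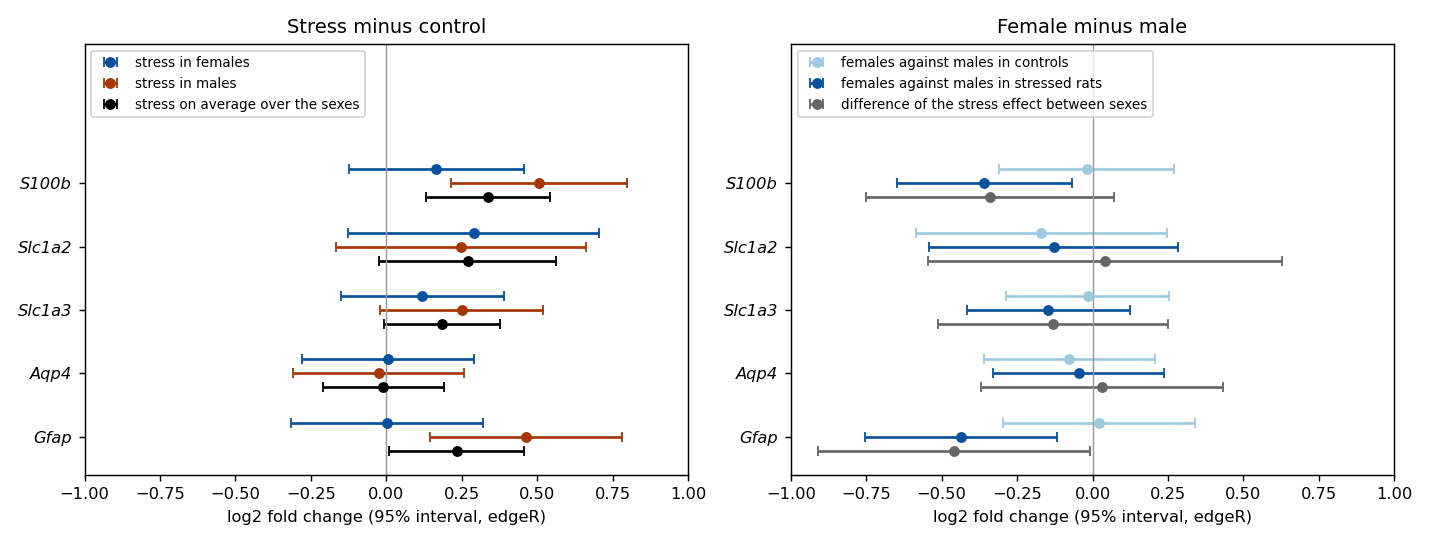
Log2 difference of each gene in the 6 comparisons (points) with its 95% interval from edgeR (bars). The intervals of S100b and Gfap in males lie above 0 (0.22 to 0.80 and 0.14 to 0.78), and no gene passed the adjusted threshold in any comparison.

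Whether the stress difference itself differed by sex was tested as an interaction. It called 0 of 5 members and 0% of all genes, with 4.01% of all genes and 1 member at an unadjusted p under 0.05 in edgeR and 1 gene called by DESeq2. That member was Gfap, whose female difference was below its male one by 0.46 on the log2 scale (-0.46, 95% interval -0.91 to -0.01, adjusted p = 1.00, edgeR). With single libraries left out, the Gfap value ran from -0.62 (without female stress 2) to -0.35 (without female stress 4). The unadjusted p in edgeR then ran from 0.0059 to 0.111. In the HTSeq libraries it was -0.38 (unadjusted p = 0.150, edgeR). For S100b the interaction was -0.34 (95% interval -0.75 to 0.07, and -0.21 without female stress 1) and for Slc1a3 -0.13, and for Aqp4 and Slc1a2 it was 0.03 and 0.04.

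Between the sexes, control rats and stressed rats were compared separately. In controls, 0 of 5 members and 0.112% of all genes were called, and the members' log2 differences, female minus male, ran from -0.17 (Slc1a2) to 0.02 (Gfap), with adjusted p of 0.926 or more in edgeR. In stressed rats, 0 of 5 members and 0.0913% of all genes were called. All 5 differences were below 0, while 50.6% of all genes tested were above 0. Those of Aqp4 and Slc1a2 changed sign in some settings. Gfap had -0.44 (95% interval -0.76 to -0.12, adjusted p = 0.812, edgeR) and S100b had -0.36 (95% interval -0.65 to -0.07, adjusted p = 0.826, edgeR). Without female stress 1 the S100b value was -0.23, and with the mitochondrial covariate it was -0.22. The same stressed males enter these differences and the stress comparison in males, so they are not separate evidence.

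The members were then compared with each other over the 16 libraries, as Pearson's r of log2 CPM after the mean of each group was subtracted, with permutation p-values adjusted over the 10 pairs. The permutations did not allow for the subtracted means, so these p-values and those of the later correlations may be too low. The glutamate transporters and S100b varied together. S100b and Slc1a3 had r = 0.79 (rho = 0.77, permutation p = 0.00034, adjusted 0.0032), S100b and Slc1a2 had r = 0.77 (rho = 0.63, permutation p = 0.00064, adjusted 0.0032), and Slc1a2 and Slc1a3 had r = 0.72 (rho = 0.65, permutation p = 0.00146, adjusted 0.00487). Leaving out the 2 libraries farthest from the median of the gene named first gave r of 0.71, 0.61 and 0.66, and the 13 HTSeq libraries alone gave 0.82, 0.66 and 0.77. Among the 14240 other genes, Slc1a3 ranked 55 and Slc1a2 ranked 88 by likeness to S100b. In the 13 HTSeq libraries alone Slc1a3 ranked 94 and Slc1a2 ranked 627, behind Aqp4 at 539.

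Gfap and Aqp4 stood outside this group. Their 7 pairs had r between -0.20 and 0.36, with adjusted permutation p of 0.398 or more. The Aqp4 pairs had other values without the featureCounts libraries: r between Aqp4 and S100b was 0.17 over all 16 libraries and 0.67 in the 13 HTSeq libraries (adjusted permutation p = 0.0229). By likeness to Gfap, the best placed of the other members was Aqp4, at rank 2310 of 14240. The genes nearest to the mean of the 5 members, of 14236 compared, were ENSRNOG00000021035 on chromosome 1 from 101701975 to 101703550 and ENSRNOG00000014589 on chromosome 1 from 141662850 to 141672810, each with r = 0.89 over 16 libraries.

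The 3 genes that varied together also varied with the mitochondrial share of a library. With the group means subtracted from both, Slc1a2 had r = 0.89 with that share (rho = 0.86, permutation p = 2e-05, the smallest that these permutations can give, adjusted 0.0003 over 15 relations of the 5 genes to the mitochondrial share, the share outside genes and the share not aligned). S100b had r = 0.76 (rho = 0.76, permutation p = 0.00088, adjusted 0.0066) and Slc1a3 had r = 0.60 (rho = 0.74, permutation p = 0.0195, adjusted 0.0489). Slc1a2 ranked 12 of the 14241 genes by this r, S100b 176 and Slc1a3 737. Male stress 11 had both the highest share (82.5%) and the highest Slc1a2 (146 CPM) of the 16 libraries, and female control 10 the lowest of both (64.2% and 61.4 CPM). Aqp4 and Gfap had r of -0.38 and -0.12 (rho = -0.06 and -0.14, adjusted permutation p for r = 0.236 and 0.648). The sign for Aqp4 was not stable. Its r was 0.09 in the 13 HTSeq libraries and 0.11 without the 2 libraries farthest from the median share. For Gfap these values were -0.20 and -0.28.

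The relation was measured again under other scalings and in fewer libraries. With mitochondrial counts removed before scaling, r was 0.89 for Slc1a2, 0.76 for S100b and 0.60 for Slc1a3. In the 13 HTSeq libraries it was 0.93, 0.65 and 0.70, and without the 2 libraries farthest from the median share it was 0.86, 0.72 and 0.72. After the share was removed from each gene by regression, r between S100b and Slc1a2 was 0.30 (adjusted permutation p = 0.372). It was 0.52 between Slc1a2 and Slc1a3 (adjusted 0.0804) and 0.64 between S100b and Slc1a3 (adjusted 0.0255). By these permutations, which do not allow for the fitted share either, 1 of the 3 pairs stayed under 0.05. By the same regression, r between Gfap and S100b was 0.56 (adjusted permutation p = 0.0576; 0.27 without it), and r between Aqp4 and S100b was 0.76 and between Aqp4 and Slc1a3 0.78 (adjusted permutation p = 0.0032 for both). These regressions were added after the data were seen.

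**Figure D4:**
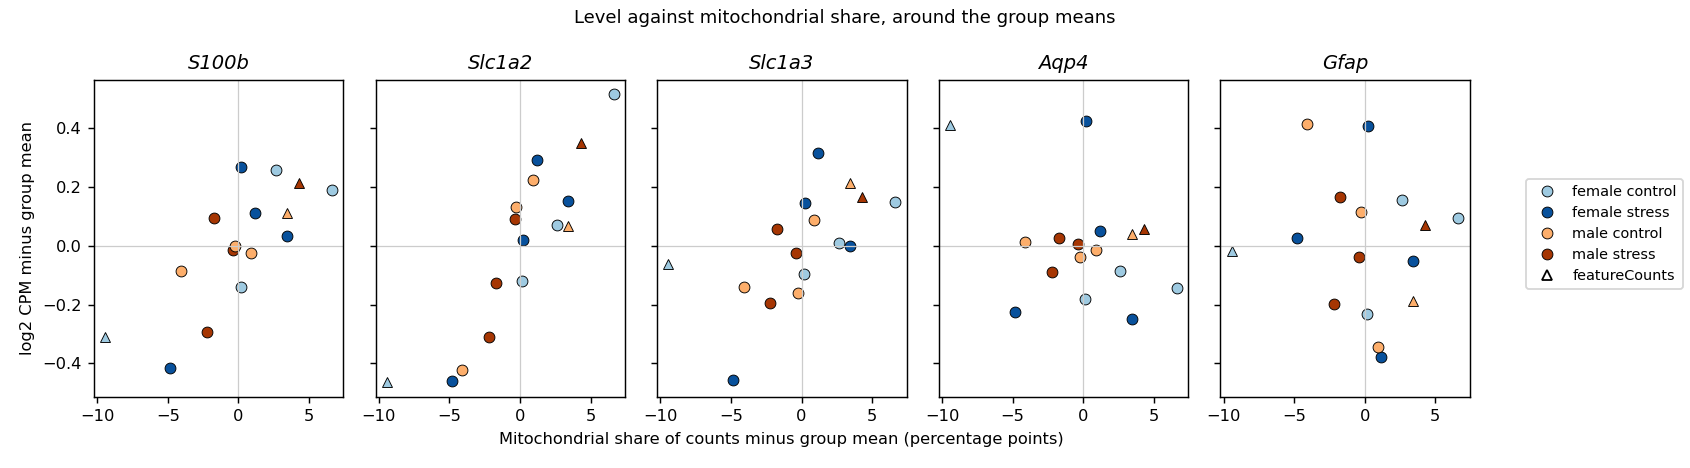
Level of each gene (log2 CPM minus its group mean) against the mitochondrial share of the counts minus its group mean (percentage points), one point per library, coloured by group with triangles for featureCounts. Slc1a2 climbs with the share (r = 0.89), S100b and Slc1a3 less closely (0.76 and 0.60), and Aqp4 and Gfap have r of -0.38 and -0.12. Without the triangles, r for Aqp4 is 0.09.

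The mitochondrial share was 78.2% ± 2.97 in stressed males and 74.9% ± 3.13 in control males (SD, n = 4 each, two-sided exact permutation p = 0.2). It was 74.4% ± 3.49 in stressed and 73.6% ± 6.83 in control females (exact permutation p = 0.857), and the smallest p that 4 against 4 libraries allow is 0.0286. With the share as a covariate, the stress difference in males was 0.02 on the log2 scale for Slc1a2 (0.25 without the covariate), 0.16 for Slc1a3 (0.25), 0.37 for S100b (0.51, adjusted p = 0.416 in edgeR) and 0.49 for Gfap (0.46). In females it was 0.25 for Slc1a2 (0.29 without the covariate), 0.09 for Slc1a3 (0.12), 0.14 for S100b (0.17) and 0.01 for Gfap (0.00).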

How the data were processed

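Total RNA was made into libraries with NuGen Ovation RNA-Seq System v2 and sequenced as 75 bp paired ends, per the labels' protocols. STAR 2.5.2a, HTSeq and the build Rnor_6.0 are named in the submitters' processing notes, and 3 libraries were counted with featureCounts 1.6.1 against Ensembl release 92, per the file headers. The files deposited by the authors hold raw counts for each Ensembl gene. In the HTSeq files, 44.8% to 64.7% of the entries stood in lines that name no gene, and these were left out throughout.

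Genes were tested with edgeR 4.0.16 (R 4.3.3): TMM factors, filterByExpr with a minimum count of 10, and a robust quasi-likelihood fit of the 4 group means to all 16 libraries. Adjusted p-values are Benjamini-Hochberg values over the 14241 genes of a comparison, with calls under 0.05. The fit was also run on counts simulated from its own levels and spread, with genes drawn independently. That is no check of how it holds in these libraries. Correlations used log2 CPM with a prior count of 2 and 100000 permutations of the centred values. These do not allow for the subtracted group means, so adjusted p-values of correlations just under 0.05 are uncertain. Alternatives were DESeq2 1.42.0, RLE factors, no filter on low counts, HTSeq libraries only, nuclear counts only, each sex alone, each library left out, and, added after the data were seen, the mitochondrial share as a covariate.

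The members, lists and tests were chosen with earlier results of these data known. The rule for named genes was the 5 members plus the 2 genes nearest to their mean. Marker lists of other cell types were not analysed here, because the name table (47357 genes) matched 0 of the Ensembl identifiers.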

Additional observations from a re-analysis of the deposited data

Results flagged for a closer look

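One of 20 groups of 4 libraries held a library far from the others, and chance alone flags about 1 in 20. It was Aqp4 in control females: female control 10 had 799.58 CPM, against 530.33 to 566.64 in the other 3 libraries. The gap to the nearest of the others was 0.865 of the range of the group, above Dixon's 95% critical value for 4 samples. That library was counted with featureCounts and had the lowest mitochondrial share of all 16 (64.2%). Without it, the stress difference of Aqp4 in females was 0.16 on the log2 scale, against 0.01 with it.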

How the results depend on the processing

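The 30 differences of the 5 genes were computed again under up to 23 other settings, 670 values in all. Of these, 610 kept their direction and side of the threshold, 57 had the opposite sign and 3 passed the threshold. The 12 differences that changed sign in some setting were at most 0.13 from 0 on the log2 scale.

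The values that passed were all for S100b: 0.50 in males and 0.33 on average with no filter on low counts, where 1 member was called in each, and 0.39 on average without female stress 1. Leaving out single libraries gave 0 to 1 members called on average and 0 in the other comparisons.

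Counts of all genes called moved more. For stress in females the main count was 9, with 26 by DESeq2, 105 with no filter on low counts, 14 in HTSeq libraries only and 6 to 13 with single libraries left out. In males it was 17, with 31 by DESeq2, 88 with no filter, 5 in HTSeq libraries, 27 with each sex alone and 7 to 21 with libraries left out, the lowest without male stress 11. On average it was 48, with 101, 207, 29 and 28 to 56, the lowest without female stress 3 or male control 20. For the interaction it was 0, with 1 by DESeq2, 36 with no filter and 0 to 0 with libraries left out. For control females against males it was 16, with 27, 54, 10 and 12 to 19, and for stressed rats 13, with 105 with no filter and 10 to 13. The cause was not tested.

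Signs changed as follows on the log2 scale. Gfap in females gave -0.0016 by DESeq2, -0.000875 with RLE factors, -0.0037 with no filter, -0.0062 in HTSeq libraries, -0.00020 with nuclear counts and -0.16 to 0.12 with libraries left out. Aqp4 in females gave -0.0031 with no filter and -0.16 to 0.16 with libraries left out. Aqp4 with the mitochondrial covariate gave 0.040 in males, 0.038 on average and -0.0024 for the interaction, and 0.065 on average in HTSeq libraries. With libraries left out, Aqp4 ran from -0.045 to 0.0032 in males, -0.095 to 0.070 on average, -0.13 to 0.19 for the interaction and -0.21 to 0.035 between stressed sexes. The interaction ran from -0.099 to 0.24 for Slc1a2 and -0.24 to 0.0065 for Slc1a3. Between control sexes, HTSeq libraries gave -0.035 for Gfap, 0.11 for S100b and 0.081 for Slc1a3, the covariate gave 0.016 for S100b and 0.024 for Slc1a3, and leaving out libraries gave -0.083 to 0.18, -0.11 to 0.080 and -0.069 to 0.060 for the 3 genes. Slc1a2 between stressed sexes gave 0.12 with the covariate and -0.23 to 0.0078 with libraries left out. The correlation of Aqp4 with Slc1a2 was -0.15 over all libraries, 0.19 in HTSeq libraries and 0.44 with the mitochondrial share removed. No paired analysis was possible because the groups share no replicate numbers.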

Other observations

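In the 13 HTSeq libraries, the share of reads that fell outside annotated genes also varied with the glutamate transporters and S100b, with group means subtracted. Slc1a3 had r = -0.80 (rho = -0.70, permutation p = 0.00594, adjusted 0.0297), S100b had r = -0.71 (rho = -0.45, permutation p = 0.0157, adjusted 0.0472) and Slc1a2 had r = -0.67 (rho = -0.52, permutation p = 0.0124, adjusted 0.0466). Without the 2 libraries farthest from the median share, r was -0.41, -0.18 and -0.42, so these relations rest on those libraries, of which female stress 1 has the highest share (45.0%). Gfap and Aqp4 had r of 0.15 and -0.41 (adjusted permutation p = 0.648 and 0.230). The share of entries not aligned gave r = -0.63 and rho = -0.67 with S100b (adjusted permutation p = 0.0850 and 0.0436), and r = -0.39 without the 2 libraries farthest from the median. For the other 4 genes r was between -0.48 and -0.17, with adjusted permutation p of 0.208 or more for r.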
